A study of Mus musculus with 13 samples.

Results

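The 10 genes described here belong to the YAP, TAZ and TEAD pathway: Yap1 and Wwtr1, which encode the coactivators YAP and TAZ, Tead1, Tead2, Tead3 and Tead4, which encode their DNA-binding partners, Lats1 and Lats2, which encode the kinases that restrain the coactivators, Amotl2, which encodes a scaffold protein that binds YAP, and Ankrd1, a widely used target gene. They were taken by name, 10 of the 21951 protein-coding genes of the GENCODE vM21 annotation (mm10). For each gene the window examined was the gene span plus 10 kb on each side. The windows were 28.1 to 247 kb long, with a median of 72.0 kb against 37.4 kb over all protein-coding genes, and longer windows have more room for peaks.

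The data were ChIP-seq peak lists of OCT4 and SMAD3 from mouse embryonic fibroblasts (MEFs) on day 3. The MEFs came from mixed-sex embryos of the TNG MKOS mouse line on a 129/CD1 background, in which a GFP reporter replaces 1 allele of Nanog and a doxycycline (dox)-inducible cassette of c-Myc, Klf4, Oct4 and Sox2 (MKOS) with mOrange sits at Sp3, beside a CAG-driven rtTA, and they were kept in ESC medium with LIF. All cells had also been infected with a retrovirus for constitutively active Smad3 (Smad3CA), so no group without Smad3CA was compared here. The groups were OCT4 ChIP from cells given 1 µg/ml dox (OCT4 Dox+, 3 replicates), SMAD3 ChIP from such cells (SMAD3 Dox+, 3 replicates) and SMAD3 ChIP from cells without dox (SMAD3 Dox-, 3 replicates), with 2 inputs for each state. The dox concentration is that of the labels, and the study's methods give a lower value for reprogramming experiments. The comparisons ask whether SMAD3 occupied these genes differently once the reprogramming factors were induced, and whether OCT4 was found there. The files hold no expression values, so the fibroblast identity of the cells could not be checked against markers. Nothing states that replicates were separate cultures, so p-values measure the spread between these samples only.

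In the Hippo pathway, LATS kinases phosphorylate YAP and TAZ and keep them in the cytoplasm. When this restraint is low, YAP and TAZ enter the nucleus, bind TEAD factors on DNA and raise the transcription of targets such as Ankrd1, Ccn1 and Ccn2, and also of Lats2 and Amotl2, whose products act back on the pathway. TEAD, AP-1 and SMAD factors are known to share many enhancers in fibroblasts, where activated SMAD3 enters the nucleus after TGF-β or activin signalling.

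The sequences below are those of the sites the results turn on, taken from the GRCm38.p6 reference (C57BL/6J, the assembly of mm10), on the plus strand. Capitals mark matches, on either strand, to the TEAD motif GGAATG, the SMAD half-site CAGAC, the AP-1 motif TGANTCA or the octamer ATGCAAAT. Windows were 300 bp, centered on the stretch covered by the most SMAD3 lists or on the OCT4 summit, and parts within annotated untranslated exons were printed only as 30 bases around matches.

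The OCT4 summit in Lats2 and the SMAD3 sites in Tead1 and Tead3 whose levels differed between Dox+ and Dox- are shown first, at chr14:57736526-57736825, chr7:112691451-112691697 and chr17:28340880-28341179:
Lats2: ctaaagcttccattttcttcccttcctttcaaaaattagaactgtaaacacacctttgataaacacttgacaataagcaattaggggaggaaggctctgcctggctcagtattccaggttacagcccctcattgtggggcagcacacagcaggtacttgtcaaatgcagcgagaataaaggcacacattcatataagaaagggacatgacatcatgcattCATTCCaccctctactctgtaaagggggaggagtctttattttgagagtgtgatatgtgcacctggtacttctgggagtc
Tead1: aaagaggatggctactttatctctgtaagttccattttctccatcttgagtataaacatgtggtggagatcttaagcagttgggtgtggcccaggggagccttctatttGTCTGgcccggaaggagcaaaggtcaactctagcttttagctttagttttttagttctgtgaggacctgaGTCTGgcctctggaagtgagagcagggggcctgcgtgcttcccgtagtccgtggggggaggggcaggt
Tead3: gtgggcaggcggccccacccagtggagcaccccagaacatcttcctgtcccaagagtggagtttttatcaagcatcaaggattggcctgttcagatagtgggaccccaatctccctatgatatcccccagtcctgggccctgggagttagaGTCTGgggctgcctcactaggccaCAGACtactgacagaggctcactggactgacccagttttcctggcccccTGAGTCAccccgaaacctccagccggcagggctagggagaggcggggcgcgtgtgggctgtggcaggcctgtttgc

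The OCT4 window in Lats2 held 1 TEAD match, 73 bp from the summit, and no octamer. The Tead1 window held 2 SMAD half-sites, 39 bp before and 31 bp after its center. The Tead3 window held 2 SMAD half-sites and the AP-1 sequence TGAGTCA, which lay 77 bp from the center.

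Close to the starts of Tead4 and Ankrd1, the stretches chr6:128300455-128300484 and chr19:36119957-36119986 lay within SMAD3 regions that differed between the states or were called in 1 state:
Tead4: caGGAATGcacGGAATGggcgctGGAATGa
Ankrd1: attttCATTCCAGACttagtGTCTGggaag

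The Tead4 stretch carried 3 TEAD matches in a row on the plus strand. In the Ankrd1 stretch 1 TEAD match overlapped a SMAD half-site by 1 base, with a second half-site beyond it, and a further TEAD match lay elsewhere in the same window, 9 bp from its center. The windows of the differing sites at Tead2 and Lats1 held none of the 4 motifs and are not shown.

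RefSeq promoter entries (GRCm38.p6, 250 bases before to 50 after a start) were matched for 8 of the 10 genes, in 12 entries. Tead1 and Tead4 had none. Of the 8 genes, 6 (75.0%) had a TEAD match in an entry, against 16.6% of the 27025 genes with an entry. Of the 12 entries 8 (66.7%) had one, against 14.7% of 32851. For each of the 6 genes 30 bases around the first match are shown on the gene's strand, and further matches at Tead3 are not shown. The Ankrd1 match shown here is the one described above as 9 bp from the center. The other Ankrd1 match is in the stretch printed above. The stretches are chr9:8004720-8004749 (Yap1, minus strand), chr3:57576029-57576058 (Wwtr1, minus), chr17:28350702-28350731 (Tead3, minus), chr14:57746102-57746131 (Lats2, minus), chr9:102717727-102717756 (Amotl2, plus) and chr19:36120037-36120066 (Ankrd1, minus):
Yap1: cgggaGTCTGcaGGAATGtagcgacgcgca
Wwtr1: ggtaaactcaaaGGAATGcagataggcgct
Tead3: gccgggctCATTCCgtaCATTCCggccatc
Lats2: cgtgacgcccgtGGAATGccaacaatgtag
Amotl2: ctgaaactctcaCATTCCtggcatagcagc
Ankrd1: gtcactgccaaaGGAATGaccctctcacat

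The promoters of Tead2 and Lats1 held no TEAD match in these windows. For the other motifs, 4 of the 8 genes (50.0%) had a SMAD half-site in an entry, against 53.2% of all genes with one, and none had an AP-1 match or an octamer, against 8.97% and 1.97%. A match is a string of letters, and binding of a TEAD factor was not measured.

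The authors called peaks in every replicate by itself and again after pooling the replicates of each group, which gave the merged lists. The replicate lists of SMAD3 differed widely in length, with 420, 23981 and 10374 peaks in Dox+ replicates 1, 2 and 3 and 1656, 18588 and 4038 in Dox- replicates 1, 2 and 3. The 10 windows held 1, 39 and 19 of these Dox+ peaks and 3, 30 and 6 of the Dox- peaks. The OCT4 lists, of 1191, 1131 and 103 peaks, had no peak in any of the 10 windows. Read depth per replicate is not given by the files, so how far list length follows depth was not tested.

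Merged SMAD3 peaks were found at nearly all of these genes in both states. A merged SMAD3 Dox+ peak lay in the windows of 9 of the 10 genes, all but Ankrd1, against 52.5% of all protein-coding genes. A merged Dox- peak lay in 9 windows, all but that of Tead4, against 47.9%. Peaks of both states were found at 8 genes (43.5% of all genes), Dox+ peaks alone at Tead4 (9.05%) and Dox- peaks alone at Ankrd1 (4.46%). With a −log10 q of at least 2 the count fell to 4 genes in Dox+ and 3 in Dox-, against 27.1% and 21.1% of all genes, and with merged peaks that at least 2 replicate lists shared it was 9 and 5, against 43.8% and 23.7%. A transcript start of any gene was covered by 12 of the 17 merged Dox+ peaks and 10 of the 22 merged Dox- peaks. The share over the whole merged lists is not given, so these counts show nothing particular to the 10 genes. OCT4 had 1 merged peak in the 10 windows, in Lats2 (10.0% of the genes, against 4.85% of all genes). The fold enrichment over input in the 10 windows was 1.39 to 3.48 with a median of 2.07 for the 17 merged Dox+ peaks, and 1.97 to 4.27 with a median of 2.40 for the 22 merged Dox- peaks. Over the whole lists both medians were 2.3.

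**Figure D1:**
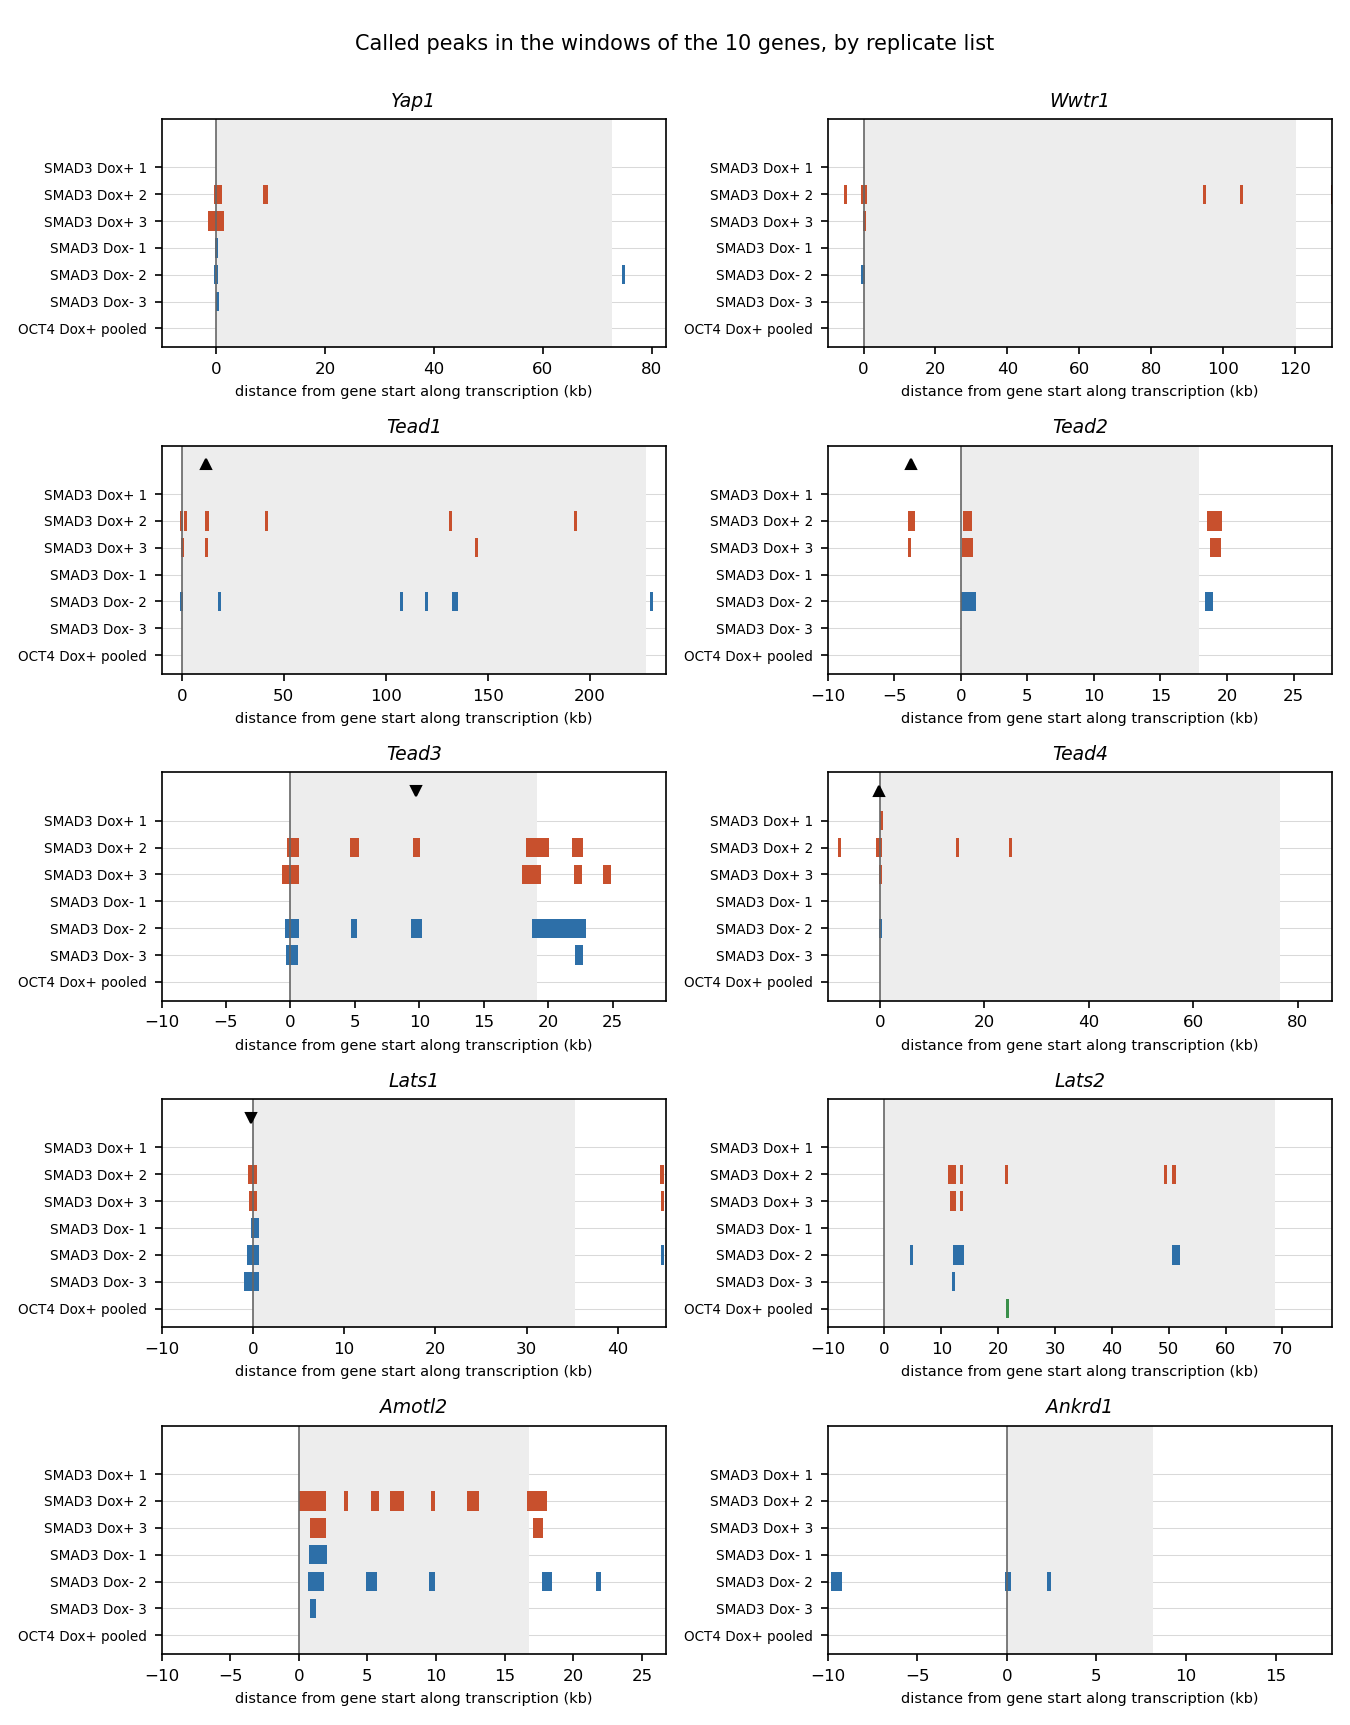
Peaks in each window, plotted by distance from the gene start in kb along transcription (grey, gene span), with a row for each SMAD3 replicate list and 1 for the merged OCT4 list. Bars are drawn at least 0.6% of the axis wide, triangles mark sites listed by the authors as higher (up) or lower (down) in Dox+, and the rows of Dox+ replicate 1 are empty except at Tead4.

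Joining overlapping peaks of the 6 SMAD3 replicate lists gave 51 regions in the 10 windows. Each of the 10 genes had a region over a transcript start of its own, against 49.8% of all protein-coding genes, and 9 had such a region in at least 2 lists, against 43.1%. The exception was Ankrd1, whose region came from 1 list. The 20 regions in at least 2 lists, called tested here because all sites the authors list are among such regions, had a median width of 1320.5 bp, and 11 of them covered a start of the gene itself, 3 a start of a neighbour only and 6 no start. The other 31 regions were each in 1 list, 17 in Dox+ replicate 2, 12 in Dox- replicate 2 and 2 in Dox+ replicate 3, with a median width of 335 bp, and 1 of them covered a start. Over the genome 40.3% of 32814 regions were in at least 2 lists. The share of those regions that cover a start is not given, so the counts of regions over starts cannot be set against it.

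Of the 51 regions 21 were found in Dox+ lists alone, 12 in Dox- lists alone and 18 in both, against 42.1%, 23.9% and 34.0% of all regions. Of the 20 regions in at least 2 lists 18 were found in both states and 2 in Dox+ lists alone, at Tead1 and Tead2. Most such regions of the genome were also in both states, 11159 of 13217.

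To compare the states over replicates, the percent of each window covered by SMAD3 peaks was taken in each list. The mean was higher in Dox+ for 8 genes and higher in Dox- for Lats1 and Ankrd1, and the median difference (Dox+ minus Dox-) was 0.614 percentage points for the 10 genes and 0.341 over the 14706 genes with a SMAD3 peak in any list. Of those genes 74.4% had the higher mean in Dox+. Counted as peaks per 1000 peaks of the list, 4 of the 10 genes were higher in Dox+ and 6 in Dox-, against 53.9% and 46.1% of those genes. In none of the 10 windows did the Dox+ and Dox- values separate without overlap, which occurred for 0.143% of genes with Dox+ above and 0.0272% with Dox- above. Exact two-sided permutation tests gave p from 0.3 to 1 for the 10 genes, where 3 lists against 3 cannot give less than 0.1, and the Benjamini-Hochberg adjusted p over all genes was 1 for each.

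**Figure D2:**
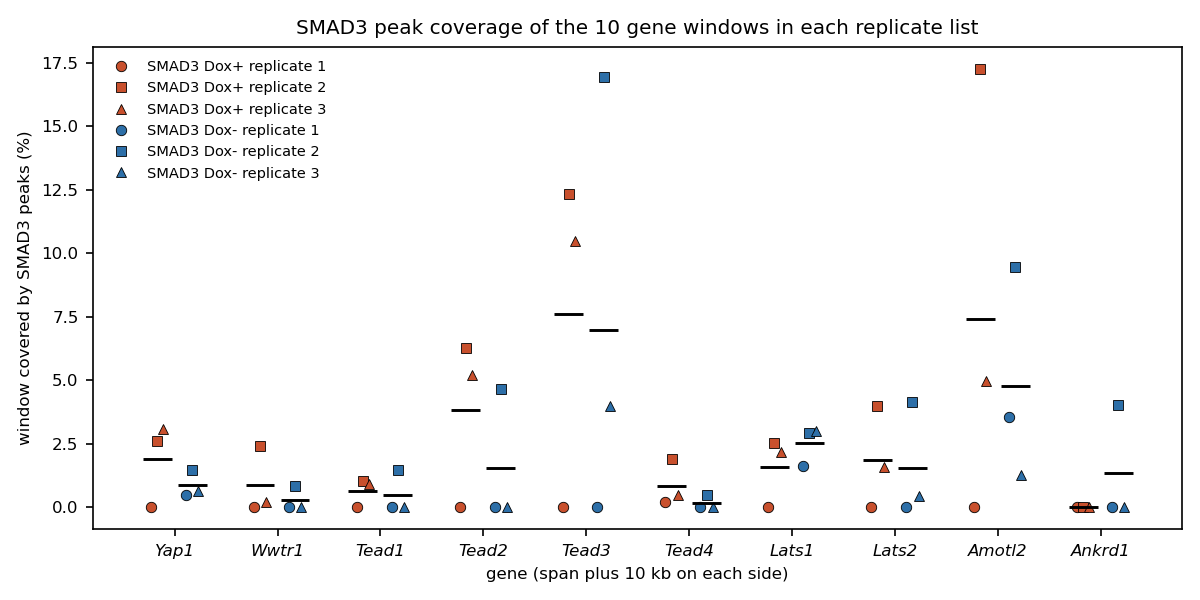
Percent of each gene window covered by SMAD3 peaks, with 1 point for each replicate list (Dox+ red, Dox- blue; circle, square and triangle for replicates 1, 2 and 3) and a bar at the mean of each group. Points of Dox+ and Dox- overlap in every window, and replicate 2 is the highest of its group in most windows.

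Of the coactivator genes, Yap1 had SMAD3 peaks in 5 of the 6 lists. SMAD3 peaks covered 0, 2.62 and 3.10% of the Yap1 window in Dox+ replicates 1, 2 and 3 and 0.479, 1.47 and 0.633% in Dox- replicates 1, 2 and 3. All 3 Dox- values lay between the Dox+ replicate without a peak and the other two. The main region lay at the Yap1 start, chr9:8003222-8006089, and was present in 2 Dox+ and 3 Dox- lists, with fold enrichments of 2.29 and 3.15 against 2.25, 2.22 and 2.03. Means were 1.91 ± 1.67% (SD, n = 3) and 0.862 ± 0.535% (exact permutation p = 0.4). Without Dox+ replicate 1, the shortest list, the remaining 2 Dox+ values were above all Dox- values, with a mean of 2.86%. Counted as peaks per 1000 peaks of the list, the direction turned, and all 3 Dox- values were above the Dox+ values (difference -0.260, exact permutation p = 0.1, the smallest possible). This measure gives a peak of a short list more weight. Dox- replicates 1 and 3 held 1656 and 4038 peaks in all, against 23981 and 10374 in Dox+ replicates 2 and 3. The share of all genes that separate in this way is not given.

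At Wwtr1 the coverage was 0, 2.43 and 0.195% in Dox+ and 0, 0.833 and 0% in Dox-, so that each state had 1 replicate well above the rest. The region in more than 1 list lay at the gene start, chr3:57574913-57576709, with folds of 2.40 and 2.89 in Dox+ replicates 2 and 3 and 2.3 in Dox- replicate 2. The 4 other regions were in Dox+ replicate 2 alone, with folds of 1.46 to 2.58, and 2 of them were intronic.

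The TEAD genes differed from each other in where SMAD3 lay. Tead1, the longest window, had 13 regions, of which 11 were in 1 list each and 2 in more. Coverage was 0, 1.01 and 0.916% in Dox+ and 0, 1.45 and 0% in Dox-. The highest value was in Dox- and came from 1 list. The region at the gene start, chr7:112678151-112679966, was in 2 Dox+ lists and 1 Dox- list with folds of 2.37, 2.01 and 1.80. The second, chr7:112690595-112691739, covered the start of a shorter Tead1 transcript within an intron of the longest one. It was in Dox+ replicates 2 and 3 (folds 1.93 and 2.16) and in no Dox- list. The highest folds of the window, 4.39, 5.03 and 4.65, were at intronic regions found in Dox- replicate 2 alone. Among regions in a Dox+ list alone the highest fold was 3.53, in replicate 2. Intronic merged peaks were called in Dox- (folds 2.59 and 2.41) and not in Dox+.

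Tead2 is a compact gene with close neighbours, and all 3 of its regions were in at least 2 lists. Coverage was 0, 6.28 and 5.20% in Dox+ and 0, 4.66 and 0% in Dox-. Dox+ replicates 2 and 3 were above all Dox- lists, and Dox+ replicate 1 was at 0. The region at the Tead2 start, chr7:45215738-45216870, had folds of 1.66 and 2.29 in Dox+ and 2.50 in Dox-. The region chr7:45211774-45212334, found in Dox+ replicates 2 and 3 alone (folds 2.33 and 2.2), covered the start of the neighbour Dkkl1 and was centered 3829 bp from the Tead2 start. The third lay in an untranslated exon of the neighbour Cd37.

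Tead3 was the most densely covered TEAD gene, with 0, 12.3 and 10.5% in Dox+ and 0, 16.9 and 3.97% in Dox-. Each state ranged from 0 to above 12%, and the group means, 7.60 ± 6.65% and 6.97 ± 8.86% (SD, n = 3), were close (exact permutation p = 1). Part of this coverage was a joined region of 5018 bp, chr17:28327848-28332865. It ran from the start of the neighbour Rpl10a, a ribosomal protein gene, into the Tead3 gene span. In Dox+ replicates 2 and 3 the peaks at the Rpl10a start were 857 and 571 bp wide. Wider Dox+ peaks, of 1834 and 1529 bp, were centered 2370 and 2823 bp from that start and overlapped the Tead3 span. In Dox- replicate 2 a peak of 4234 bp ran across both places. The region at the Tead3 start, chr17:28350126-28351471, was in 2 lists of each state with folds of 2.08 and 2.40 in Dox+ and 2.27 and 2.26 in Dox-. An intronic region, chr17:28340603-28341470, was in replicate 2 of both states, at a fold of 2.89 in Dox+ and 2.47 in Dox-, and had a merged peak in Dox- (fold 3.63) and none in Dox+.

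Tead4 was the only one of the 10 genes with a peak in all 3 Dox+ lists. Coverage was 0.186, 1.88 and 0.467% in Dox+ and 0, 0.487 and 0% in Dox-. The highest Dox- value exceeded 2 of the Dox+ values. Means were 0.846 ± 0.909% and 0.162 ± 0.281% (SD, n = 3), with the lowest exact permutation p of the 10 genes, 0.3. The region in more than 1 list lay at the Tead4 start, chr6:128300349-128301551. Its folds were 2.77, 3.01 and 2.19 in Dox+ replicates 1, 2 and 3 and 2.19 in Dox- replicate 2. It was 1 of 365 regions of the genome found in all 3 Dox+ lists. The 3 other Tead4 regions were in Dox+ replicate 2 alone, with folds of 2.78, 4.37 and 3.21. They made up part of the 1.88% in that list.

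Lats1 had SMAD3 peaks in all 3 Dox- lists and in 2 of the Dox+ lists. Coverage was 0, 2.52 and 2.19% in Dox+ and 1.63, 2.93 and 2.99% in Dox-. Dox- replicates 2 and 3 were above every Dox+ value, while Dox- replicate 1 fell below 2 of them. Means were 1.57 ± 1.37% and 2.52 ± 0.770% (SD, n = 3, exact permutation p = 0.5). The region at the Lats1 start, chr10:7680210-7681908, also covered the start of the neighbour Pcmt1 and was in 2 Dox+ lists (folds 2.17 and 2.44) and all 3 Dox- lists (folds 2.51, 2.09 and 2.34). The other region of the window lay at the start of Katna1, a neighbour that encodes a katanin subunit.

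Lats2 was the gene with an OCT4 peak. The peak, chr14:57736560-57736779, was intronic, 2376 bp from the nearest annotated start of Lats2, had a fold enrichment of 5.80 and a −log10 q-value of 6.89, and was called on the pooled replicates but in none of the 3 replicate lists. This held for 29.4% of the 2022 merged OCT4 peaks. A merged SMAD3 Dox+ peak of fold 1.90, chr14:57736585-57736840, overlapped it, as did a peak of Dox+ replicate 2 with a fold of 2.68, and no Dox- peak of either kind did. Of all merged OCT4 peaks 23.9% were overlapped by a Dox+ and not a Dox- merged SMAD3 peak.

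The pooled signal was ChIP minus input coverage, which the authors normalized to 1x genome coverage. Because input is subtracted it can be negative, and its values are not multiples of a genome mean. Over the central 200 bp of the Lats2 peak it had a mean of 22.4 for OCT4, 15.3 for SMAD3 Dox+ and 1.28 for SMAD3 Dox-. The medians over the 2083 summit entries of the merged list were 21.6, 7.24 and 0.0280. The OCT4 signal at Lats2 was higher than at 54.4% of them, the SMAD3 Dox+ signal was higher than 90.4% and the SMAD3 Dox- signal higher than 71.1%. These are pools without replicates, so the difference between Dox+ and Dox- has no replicate check.

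**Figure D3:**
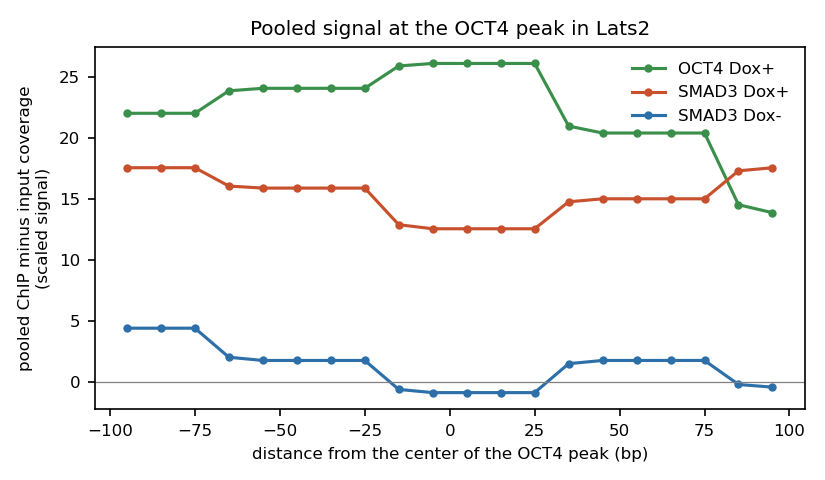
Pooled ChIP minus input signal in bins of 10 bp within 100 bp of the center of the OCT4 peak in Lats2, with 1 line for each pool. OCT4 Dox+ runs between 13.9 and 26.1, SMAD3 Dox+ between 12.6 and 17.6 and SMAD3 Dox- between -0.90 and 4.39.

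SMAD3 coverage of the Lats2 window was 0, 3.98 and 1.60% in Dox+ and 0, 4.15 and 0.453% in Dox-. Both states spanned nearly the same range. The broadest region, chr14:57744456-57747150, covered an internal Lats2 start and was in 2 lists of each state, with folds of 2.11 and 3.24 in Dox+ and 2.67 and 2.31 in Dox-.

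Amotl2 had SMAD3 peaks along its whole length. The 8 regions covered 0, 17.3 and 4.95% of the window in Dox+ and 3.56, 9.48 and 1.27% in Dox-. Values of the states were interleaved, with Dox+ holding both the highest and the lowest (exact permutation p = 0.7). The region at the gene start, chr9:102716701-102718721, was in 2 Dox+ and all 3 Dox- lists, and its fold of 3.81 in Dox- replicate 2 was above the 2.06 and 2.34 of Dox+. Of the 5 regions in the gene body, 2 were in replicate 2 of both states, with folds of 7.34 in Dox- against 3.14 in Dox+ at chr9:102721555-102722517 and 6.74 against 1.92 at chr9:102726156-102726611. The other 3 were in Dox+ replicate 2 alone, with folds of 2.07 to 2.64.

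Ankrd1 was the gene with SMAD3 peaks in the fewest lists. It had no peak in any Dox+ list and none in Dox- replicates 1 and 3, while 4.01% of the window was covered in Dox- replicate 2. That list had 3 regions, at the gene start (chr19:36119881-36120205, fold 2.77), in an intron (fold 4.02) and 9486 bp upstream (fold 2.32), and the merged Dox- list had peaks at the first and the last of them, with folds of 2.14 and 2.05. The difference between the states rests on that 1 list (exact permutation p = 1).

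The authors listed regions in which SMAD3 differed between Dox+ and Dox- by DiffBind, keeping those whose false discovery rate was 0.1 or less and whose log2 fold was 1 or more in size. The lists were made from these same libraries and give a log2 mean concentration, a normalized read count, for each group and none for each replicate, so the levels are given here as the authors' means without an error. Of the 20 tested regions in the 10 windows 3 (15.0%) were listed with higher SMAD3 in Dox+, against 8.90% of all 13217 tested regions, and 2 (10.0%) with lower SMAD3, against 6.84%. The 3 genes with a higher site stand beside 6.64% of all genes, and the 2 with a lower site beside 3.84%.

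The 3 sites with higher SMAD3 in Dox+ were all in windows of TEAD genes. At the internal start of Tead1 (chr7:112690595-112691739) the log2 mean concentration was 3.47 in Dox+ and 0.44 in Dox-, the latter being the lowest value in the list, shared by 276 of the 1176 higher sites. At the Dkkl1 start in the Tead2 window (chr7:45211774-45212334) the levels were 2.96 and 0.63, and at the Tead4 start (chr6:128300349-128301551) 4.25 and 2.73. The medians over all 1176 sites were 3.82 and 1.5. The Tead4 site was the one of the 3 with SMAD3 peaks also in a Dox- list.

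The 2 sites with lower SMAD3 in Dox+ were the intronic Tead3 site (chr17:28340603-28341470), at 2.46 in Dox+ and 4.09 in Dox-, and the Lats1 start (chr10:7680210-7681908), at 4.24 and 5.34. The medians over all 904 lower sites were 2.16 and 4.02. The Lats1 start had the highest levels of the 5 sites in Dox- and nearly the same Dox+ level as the Tead4 start. The Tead3 site had a peak in 1 replicate list of each state, where the fold was the higher in Dox+ (2.89 against 2.47), and a merged peak in Dox- alone. The Tead1 and Tead2 sites had peaks in 2 Dox+ lists and no Dox- list. No site was listed at Yap1, Wwtr1, Lats2, Amotl2 or Ankrd1.

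**Figure D4:**
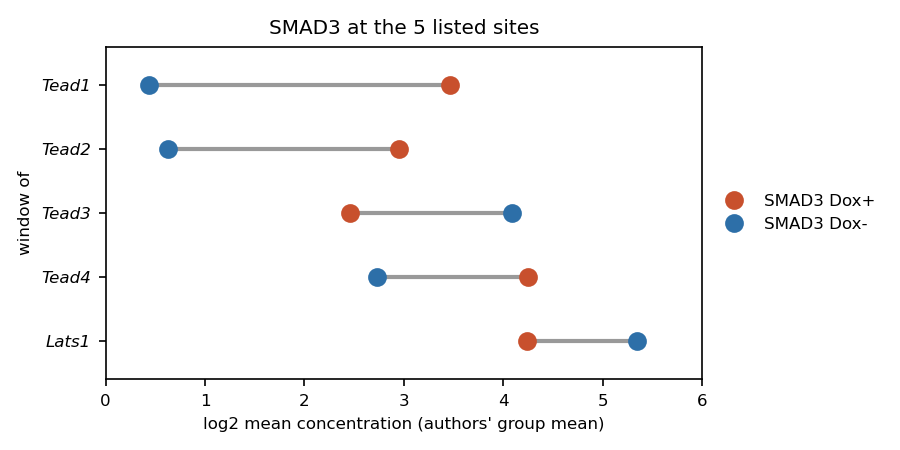
The authors' log2 mean concentration of SMAD3 at the 5 listed sites, in Dox+ (red) and Dox- (blue), by the gene whose window holds the site. Dox+ lies to the right at Tead1, Tead2 and Tead4 and to the left at Tead3 and Lats1, and the points are group means with no error.

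A second list of the authors sets OCT4 against SMAD3 within Dox+ cells. Of its 9903 tested regions 17 lay in the 10 windows and 2 were listed. At the Wwtr1 start (chr3:57574913-57576709) the log2 mean concentration was 3.84 for SMAD3 and 2.31 for OCT4, and 6.64% of all tested regions were listed in that direction. At the internal start of Tead1, the site with higher SMAD3 in Dox+, it was 4.82 for OCT4 and 2.62 for SMAD3, the direction of 13.6% of tested regions. No OCT4 peak was called at this Tead1 site in any list, as at 311 of the 1349 sites listed with higher OCT4, whose median OCT4 level was 4.81. The SMAD3 Dox+ libraries are in both lists, so the lists are not independent. The SMAD3 Dox+ level of the Tead1 site was 3.47 in the first list and 2.62 here, so levels of the lists are not on the same scale. OCT4 and SMAD3 levels come from different antibodies, so a higher level of either does not show greater occupancy.

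Among tested SMAD3 regions the motif content of the 10 windows was as follows. A TEAD match lay within 150 bp of the center in 5 of the 20 regions (25.0%), against 13.9% of all 13217. A SMAD half-site lay in 9 (45.0%), against 48.2%. AP-1 was matched in 1 (5.00%), the Tead3 intron site, against 9.36%, and the octamer in none, against 0.931%. At OCT4 summits the octamer was matched in 7.92% and the TEAD motif in 18.8%. The TEAD matches of the 20 regions lie in part in the promoter entries given above and are not independent of them.

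For the wider pathway, 43 further genes, 25 Hippo components or TEAD cofactors and 18 reported YAP/TAZ targets, were counted in the same way. Merged SMAD3 peaks lay in 37 windows in Dox+ (86.0%) and 36 in Dox- (83.7%), near the 90.0% of the 10 genes in each state. Over all genes the shares were 52.5% and 47.9%. A merged OCT4 peak lay in 9 of the 43 (20.9%), against 1 of the 10 (10.0%) and 4.85% of all genes. The windows of the 43 genes had a median of 71.1 kb and reached 1077 kb, for Rbms3. For none of the 43 did the coverage of Dox+ and Dox- separate without overlap.

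The OCT4 peaks were at the Hippo components Stk3, which encodes the kinase MST2, Nf2, which encodes merlin, Frmd6 and Fat4, and at the targets Ccn2, Asap1, Ggh, Rbms3 and Dock5, with 2 peaks each at Ggh and Dock5. Those of Nf2, Frmd6 and 1 of Dock5 were in 2 replicate OCT4 lists, unlike that of Lats2. Of all 2022 merged OCT4 peaks 26.2% were in at least 2 replicate lists. The Nf2 peak had a fold enrichment of 10.5, and the peaks of Nf2, Ggh and Stk3 were overlapped by a merged SMAD3 peak in Dox+ and not in Dox-, as at Lats2. This held for 23.9% of all merged OCT4 peaks.

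Sites with higher SMAD3 in Dox+ were listed at 5 of the 43 genes (11.6%, against 6.64% of all genes): Stk4, which encodes the kinase MST1, Mob1b, a LATS cofactor, Nf2, Taok3 and Ggh. At Nf2 the authors' log2 mean concentration was 3.66 in Dox+ and 0.44 in Dox-. Sites with lower SMAD3 were listed at 4 genes (9.30%, against 3.84%): Dchs1, the ligand of FAT4, Ajuba, a LIM protein that inhibits LATS, Rbms3 and Arhgef17. At Dchs1 the levels were 2.58 in Dox+ and 4.25 in Dox-.

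**Figure D5:**
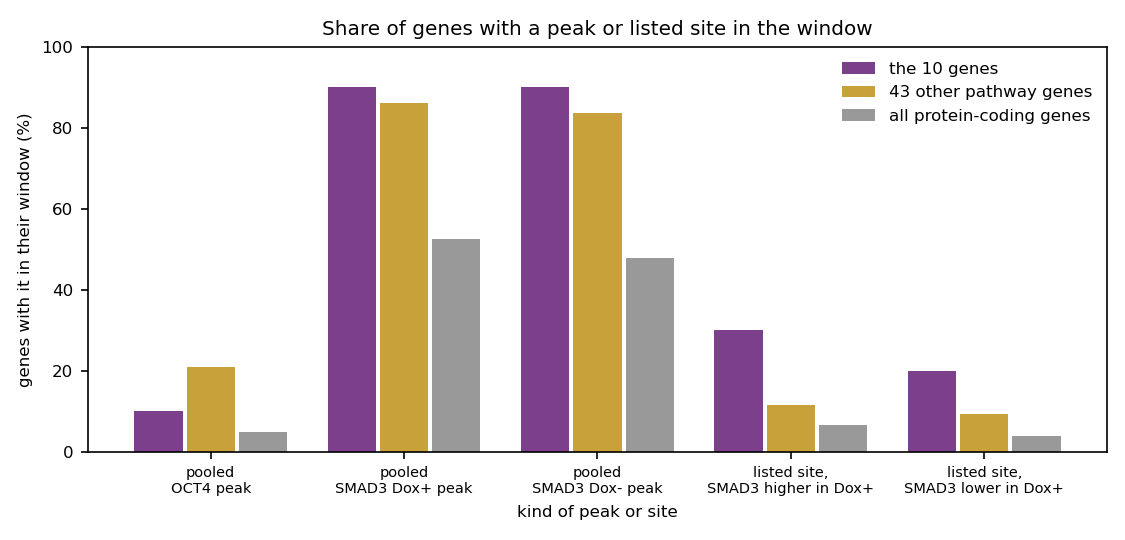
Percent of genes with at least 1 merged peak or listed site in the window, for the 10 genes (purple), the 43 other pathway genes (yellow) and all protein-coding genes (grey). The 10 genes stand at 90.0% for SMAD3 peaks in both states, and at 10.0% for OCT4 peaks against 20.9% of the 43 genes.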

How the data were processed

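9 ChIP samples and 4 inputs were labelled by antibody, dox and replicate. Per the labels and methods the authors trimmed reads, aligned them to mm10 with Bowtie 2, removed duplicates and reads of low mapping quality, and called peaks with MACS2 2.1.0 against pooled inputs (OCT4 narrow, SMAD3 broad). The deposited peak lists give a fold enrichment (a linear ratio), −log10 p- and q-values and a score. The deposited DiffBind 1.16.3 tables give log2 mean concentrations per group. The authors' log2 fold, p-value and FDR columns were not used. The deposited signal matrices (deepTools) hold a signed score, scaled ChIP minus input coverage in bins of 10 bp.

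Peaks and sites overlapping a window by at least 1 bp were taken, and tested regions were rebuilt as regions in at least 2 replicate lists. Coverage was compared by exact two-sided permutation tests with Benjamini-Hochberg adjustment. All 10 genes were named, and of the other pathway genes those with a listed site or a merged OCT4 peak. The members and lists were chosen with earlier results of these data known. Alternatives changed the window, peak threshold, list length, measure and replicates. Python 3.11.15, numpy 2.4.6 and pysam 0.24.0 were used. Overlap counting and the permutation test were tested on simulated data beforehand.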

Additional observations from a re-analysis of the deposited data

How the results depend on the processing

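Of 120 coverage differences recomputed under 12 alternatives for each of the 10 genes, 19 changed direction and 12 fell to 0, and those of Tead2, Tead4, Lats1 and Ankrd1 did not reverse. The zeros were 8 genes with lists of equal length (all but Tead4 and Amotl2), Wwtr1, Tead2 and Lats1 at a −log10 q of at least 2, and Ankrd1 without Dox- replicate 2. Leaving out 1 list at a time gave differences of -0.18 to 1.03 percentage points for Wwtr1, -0.0810 to 0.643 for Tead1, -2.85 to 5.62 for Tead3, -0.737 to 1.63 for Lats2, -2.29 to 6.34 for Amotl2, 0.448 to 2.0 for Yap1, 1.05 to 4.19 for Tead2, 0.165 to 1.01 for Tead4, -1.42 to -0.161 for Lats1 and -2.0 to 0 for Ankrd1. For Tead1 and Ankrd1 the lowest value came without Dox- replicate 1 or 3, for Tead3 without Dox- replicate 1, for Yap1 without Dox+ replicate 3, and for Wwtr1, Tead2, Tead4, Lats1, Lats2 and Amotl2 without Dox+ replicate 2. Without Dox+ replicate 1 the value came closest to 0 for Lats1 and was highest for Yap1, Wwtr1, Tead2, Tead4 and Amotl2, and without Dox- replicate 2 it was highest for Tead1, Tead3, Lats2 and Ankrd1. Peaks per 1000 peaks of the list turned Yap1 to -0.260, Tead3 to -0.0388, Lats2 to -0.00258 and Amotl2 to -0.212. Peaks with a −log10 q of at least 2 turned Tead1 to -0.0580 and Amotl2 to -0.899, and lists cut to their 420 strongest peaks turned Amotl2 to -1.13. The cause of these changes was not tested.

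Genes whose Dox+ and Dox- values did not overlap numbered 0 in each direction in the main setting. The shares over all genes, 0.143% and 0.0272%, belong to that setting. None is given for the settings below, so their counts cannot be set against all genes. Values of fewer lists also separate more easily. By peaks per 1000, 1 gene had Dox+ above (Tead4) and 1 had Dox- above (Yap1), and with the gene span alone Dox- was above at 1 (Lats1). Leaving out 1 list gave 0 to 2 with Dox+ above (2 without Dox+ replicate 1, Yap1 and Tead2) and 0 to 1 with Dox- above (1 without Dox- replicate 1, Lats1). Without Dox- replicate 2, Dox+ was above at 1 gene (Tead4). With a replicate block, 1 gene had Dox+ above in every pair (Tead4) and 1 had Dox- above (Lats1), each at an exact paired p of 0.25, the smallest possible, but same-numbered lists deviated together for replicates 1 and 2 (correlations 0.728 and 0.663) and not for replicate 3 (-0.297), so the numbers were not taken to pair the samples.

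Windows of 50 kb on each side gave 2 genes with a merged OCT4 peak (8.90% of all genes) and 5 listed sites with higher SMAD3 in Dox+, at 5 genes (13.9%). Requiring a peak to be in at least 2 replicate lists left 0 genes with OCT4 (1.4%) and 5 with SMAD3 in Dox- (23.7%). A −log10 q of at least 2 left SMAD3 at 4 genes in Dox+ (27.1%) and 3 in Dox- (21.1%), and the other counts stayed within 1.5 times. The lists give peak calls and no read counts, so a difference in SMAD3 level within a called region could not be tested over replicates.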
